A study of Mus musculus with 24 samples.

Results

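E2F transcription factors and the pocket proteins that bind them decide when a cell copies its DNA. E2f1, E2f2 and E2f3 encode the activators, which switch on genes for S phase once cyclin D and cyclin E kinases have phosphorylated the retinoblastoma protein and released them. E2f4 and E2f5 encode repressors that act with the pocket proteins of Rbl1 and Rbl2, E2f6 encodes a repressor that works without pocket proteins, and E2f7 and E2f8 encode atypical repressors that are themselves made in S phase and shut the programme down again. In the epidermis, cells of the basal layer divide, and in mice they pass through S phase and mitosis at preferred times of day. The genes described here are the 10 measured members of this group, E2f1 to E2f8, Rb1 and Rbl1, found by matching gene symbols to the identifiers of a table with 17721 genes. All 10 were in the table. The matching used symbols alone, although the group itself was picked with earlier results of these data known.

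The table compares back skin epidermis of mice whose Bmal1 gene (Arntl), the core clock activator, was deleted with a Cre recombinase under the keratin 14 promoter, with wild-type epidermis. The former are called EpiKO and the latter WT. EpiKO libraries came from C57BL/6 male mice aged 8 weeks on standard chow, 4 at each of 6 times 4 h apart, under equal 12 h spans of light and dark. Times are zeitgeber times (ZT), counted in hours from lights on. The labels describe the same sampling for each genotype, but no WT library is among the samples here, so genotype and library set cannot be told apart. The labels give no further detail of the Bmal1 or Cre alleles. Keratin 14 marks basal keratinocytes, so melanocytes, Langerhans cells and T cells of the same tissue are not direct targets of that promoter.

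Bmal1 (Arntl) itself was assigned a rhythm in WT only, where the authors' deposited table gives that model 0.882, and its WT height was 2.22 (log2) with a peak at ZT22.7. Its mean level was 9.65 in EpiKO and 9.50 in WT (log2). Which exons were deleted is not stated, so a level over the whole gene does not check the deletion.

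The measurements are polyadenylated RNA, sequenced as single reads of 51 bases and fitted by the authors with one cosine curve per gene and genotype. No values per library were used here, so the total count of each library is unknown and the spread between animals cannot be shown. For each gene the deposited table weighs 5 models, in which there is no rhythm, a rhythm in EpiKO only, one in WT only, the same rhythm in both, or different rhythms in the 2 genotypes. The weights sum to 1, and a gene's class is its heaviest model, provided that model holds at least 0.5 of the weight. Standard errors (SE) given below were back-calculated from these weights and are not part of the deposited table. The keratinocyte markers Krt5, Krt14, Krt1 and Krt10 all stood at percentile 99.9 of genes or higher in both genotypes. Cd207 of Langerhans cells differed by 1.49, Pecam1 of endothelium by 0.51 and the muscle actin Acta1 by -7.69 (log2, EpiKO minus WT). The other muscle marker, Ckm, was given equal means, with a low level of 0.68 (log2) in both genotypes. Col1a1 and Col3a1 of fibroblasts, Cd3e of T cells, and Dct and Tyrp1 of melanocytes were also given equal means. The part that other cell types play in the values below was not tested. In bulk tissue, fewer cells of a type and less RNA per cell cannot be told apart.

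The 10 members did not share one pattern. E2f1, E2f3 and E2f6 were assigned a rhythm in WT only, 3 of 10 against 8.41% of all genes. E2f2, E2f4 and E2f5 had 1 rhythm common to both genotypes, 3 of 10 against 16.7% of all genes. E2f7 and E2f8 were assigned different rhythms, 2 of 10 against 2.65% of all genes. Rb1 was assigned no rhythm, as were 56.7% of all genes, and no member was assigned a rhythm in EpiKO only, the class of 4.31% of all genes. Rbl1 had no model with a weight of 0.5. Counted by genotype, 8 of 10 were rhythmic in WT and 5 of 10 in EpiKO, against 27.7% and 23.6% of all genes. These shares describe 10 genes and carry no test.

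**Figure D1:**
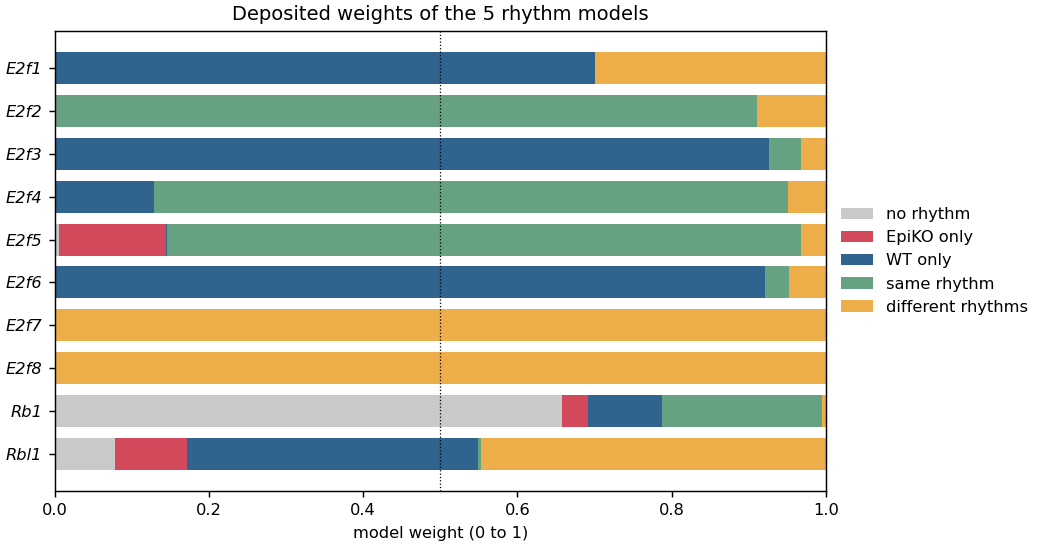
Weight of each of the 5 rhythm models (horizontal axis, 0 to 1) for the 10 members in the authors' deposited table, stacked in 1 bar per gene with a dotted line at 0.5. E2f7 and E2f8 are filled by the model with different rhythms, E2f1 is divided between WT only (0.700) and different rhythms (0.3001), and no model of Rbl1 holds 0.5 of the bar.

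E2f1, the activator best known for driving entry into S phase, had the largest difference in level of the 10 members and was assigned no rhythm in EpiKO. Its curve, computed from the deposited coefficients, stood at 8.42 (log2) in WT at ZT0, 8.51 at ZT4, 8.99 at ZT8, 9.39 at ZT12, 9.30 at ZT16 and 8.82 at ZT20. In EpiKO the fitted level was flat at 7.95 (log2), under the WT level at each of the 6 times. E2f1 lies on chromosome 2 (154559407 to 154569892, mm10). In WT its height from trough to peak was 2.05-fold, with a peak at ZT13.4 ± 0.568 h (SE), shortly after lights off.

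The choice of a flat line for E2f1 in EpiKO was not firm. The authors' deposited table gave 0.700 to WT only and 0.3001 to different rhythms, and the 3 models in which the genotypes have unequal rhythms together took a weight of 1.00. When both genotypes were allowed their own curve, the back-calculated height of E2f1 was 1.03 ± 0.15 in WT and 0.38 ± 0.15 in EpiKO (log2, SE). The difference was -0.66 ± 0.22 (log2), or -3.02 when divided by its SE. That weak EpiKO rhythm would peak 8.61 h away from the WT one, at ZT22.0 or ZT4.75, since the weights do not give the direction. Because a height cannot be negative, noise alone would bring 13.5% of flat genes to 2 SE or more, and E2f1 in EpiKO stood at 2.46 SE.

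E2f1 peaked within the range of its known targets in WT, near the early end. The mean peak of the 11 G1/S targets rhythmic in WT only was ZT14.1, with a range of ZT13.2 to ZT15.6. Over all 16 G1/S targets rhythmic in WT, the mean was ZT14.5 and the range ZT13.2 to ZT18.7. Of all genes rhythmic in WT only, leaving out predicted genes, the 3 with fitted coefficients nearest to those of E2f1 were Tnxb, the helicase subunit gene Mcm6 and Rpa2, which encodes a subunit of the single-strand DNA binding protein RPA. Mcm6 cycled 2.02-fold with a peak at ZT13.2 and Rpa2 1.88-fold at ZT13.6 in WT. Nearness here means the distance between 2 coefficients in log2, which was 0.0197 for Tnxb among 1455 candidates. It says only that curves fitted to the same libraries look alike.

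E2f3, the other activator in this class, and E2f6 had smaller WT rhythms. E2f3 (chromosome 13, 29906575 to 29986063) swung between 7.44 at ZT4 and 7.99 at ZT16 (fitted log2 level) in WT, a height of 1.53-fold with a peak at ZT17.8 ± 0.841 h. E2f6 (chromosome 12, 16810963 to 16839742) swung between 7.21 at ZT4 and 7.76 at ZT16 in WT, a height of 1.47-fold with a peak at ZT15.5 ± 0.763 h. Their weights for WT only were 0.924 and 0.921 in the authors' deposited table. Back-calculated for a free EpiKO curve, the heights were 0.14 ± 0.14 for E2f3 and 0.15 ± 0.11 for E2f6 (log2, SE), within 1.36 SE of 0. Assignment to WT only already limits this height. For both the EpiKO height was lower than the WT one, by a difference of -0.47 ± 0.19 for E2f3 and -0.41 ± 0.16 for E2f6 (log2). Of the 3 members in this class, E2f1 was the single one whose EpiKO height reached 2 SE, against 17.7% of all genes rhythmic in WT only.

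E2f7 and E2f8, the atypical repressors, were rhythmic in both genotypes and peaked in the light in EpiKO but in the dark in WT. E2f7 in WT stood at 6.82 at ZT0, 6.46 at ZT4, 6.49 at ZT8, 6.89 at ZT12, 7.25 at ZT16 and 7.21 at ZT20 (fitted log2 level). In EpiKO it stood at 6.81, 7.06, 6.60, 5.88, 5.62 and 6.09 at the same times. The curves met at ZT0, and from ZT12 to ZT20 the EpiKO level was the lower one. E2f8 in WT stood at 8.19, 7.66, 7.43, 7.72, 8.25 and 8.49 from ZT0 to ZT20. In EpiKO it stood at 8.09, 8.31, 8.04, 7.55, 7.34 and 7.61, so that its EpiKO trough at ZT16 fell where WT was on the rise.

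The peak of E2f7 (chromosome 10, 110745439 to 110787384) was at ZT17.7 ± 0.765 h in WT and ZT3.36 ± 0.471 h in EpiKO. This is 9.69 ± 0.899 h later, counted forward from WT. For E2f8 (chromosome 7, 48866429 to 48881596) the peaks were at ZT19.8 ± 0.486 h and ZT3.76 ± 0.517 h, which is 8.00 ± 0.710 h later. Over all 470 genes with different rhythms, the mean peak was ZT20.4 in WT and ZT5.15 in EpiKO. Their median delay, counted the same way, was 7.58 h, so a later peak in the light does not set E2f7 and E2f8 apart. The model with different rhythms had a weight of 1.00 for each in the authors' deposited table. In WT the height of E2f7 was 1.83-fold, and in EpiKO 2.75-fold, a difference of 0.59 ± 0.25 (log2, SE). E2f8 had heights of 2.08-fold and 1.97-fold, a difference of -0.08 ± 0.19 (log2) that is less than its SE. For comparison, the EpiKO height was the smaller one in 340 of all 470 genes with different rhythms and in 11 of the 12 G2/M targets. E2f8 shares 8.21% of its 51-base windows with Gm2788, a gene on the opposite strand. The kit marks strand, but whether reads were counted by strand is not stated, so the level of E2f8 is less certain.

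**Figure D2:**
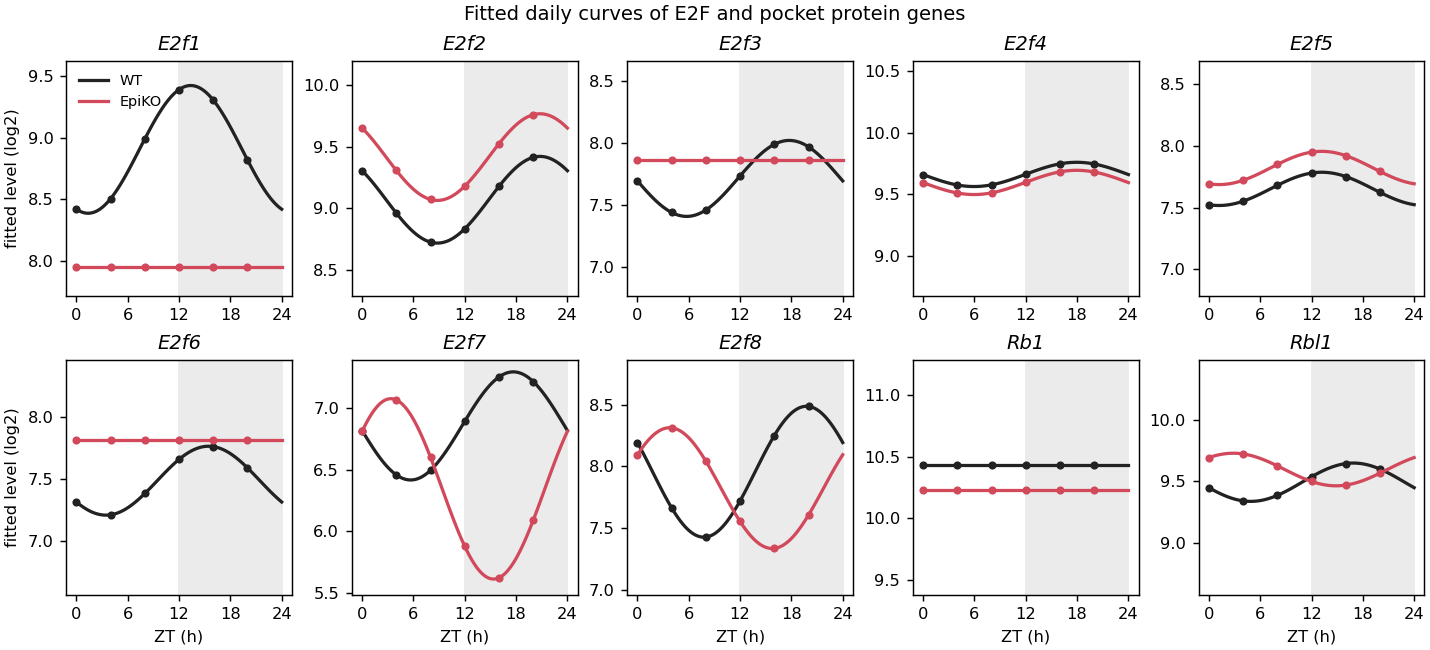
Fitted log2 level (vertical axis, each panel spanning the same number of log2 units) against ZT in hours for the 10 members in WT (black) and EpiKO (red). Lines are the cosine curves from the deposited coefficients, points mark the 6 sampled times and carry no animal values, and the dark phase is shaded. E2f7 and E2f8 peak at ZT17.7 and ZT19.8 in WT and at ZT3.36 and ZT3.76 in EpiKO, and the flat EpiKO line of E2f1 at 7.95 lies below its whole WT curve.

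Rbl1, which encodes the pocket protein p107, gave a weaker picture of the same kind. Its best model, different rhythms, had a weight of 0.448 and WT only followed with 0.377 in the authors' deposited table. Under the best model Rbl1 (chromosome 2, 157145893 to 157204534) was lowest in WT at ZT4 (9.34) and highest at ZT16 (9.64), while in EpiKO it was lowest at ZT16 (9.47) and highest at ZT4 (9.72, fitted log2 level). The heights were small, 1.24-fold in WT and 1.20-fold in EpiKO. The peaks were at ZT16.9 ± 1.16 h and ZT2.87 ± 1.34 h. Its EpiKO peak was thus 9.97 ± 1.77 h later. In EpiKO the peak of Rbl1 lay 0.496 ± 1.42 h before that of E2f7 and 0.898 ± 1.44 h before that of E2f8. E2f7 lay 0.402 ± 0.699 h before E2f8, so no gap among the 3 exceeded its SE. Counting all members whose models with unequal rhythms have a summed weight of at least 0.5 adds Rbl1 (0.918) to the 5 members named above, 6 of 10 against 18.2% of all genes.

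The 250 bases before the annotated start of these 3 genes are shown because they are the members whose peaks were placed in the light phase in EpiKO. The sequences are from RefSeq (GRCm38.p6), written 5′ to 3′ along the gene, at chr10:110745189-110745438 (plus strand) for E2f7, chr7:48881597-48881846 (minus strand) for E2f8 and chr2:157204535-157204784 (minus strand) for Rbl1. Capitals mark matches on either strand to an E2F site (TTTCCCGC, TTTGGCGC, TTTCGCGC or TTTGCCGC), the CHR element of late cell cycle genes (TTTGAA) and the CCAAT box bound by NF-Y.
E2f7: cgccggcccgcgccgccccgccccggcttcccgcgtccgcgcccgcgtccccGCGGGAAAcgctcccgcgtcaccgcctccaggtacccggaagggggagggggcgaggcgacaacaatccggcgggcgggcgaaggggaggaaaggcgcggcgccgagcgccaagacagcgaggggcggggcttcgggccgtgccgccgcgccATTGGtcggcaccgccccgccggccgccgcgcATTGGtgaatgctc
E2f8: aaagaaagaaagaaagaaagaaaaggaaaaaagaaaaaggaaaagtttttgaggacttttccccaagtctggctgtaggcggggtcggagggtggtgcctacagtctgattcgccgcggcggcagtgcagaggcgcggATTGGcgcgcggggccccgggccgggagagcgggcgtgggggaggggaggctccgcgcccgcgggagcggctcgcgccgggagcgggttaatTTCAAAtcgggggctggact
Rbl1: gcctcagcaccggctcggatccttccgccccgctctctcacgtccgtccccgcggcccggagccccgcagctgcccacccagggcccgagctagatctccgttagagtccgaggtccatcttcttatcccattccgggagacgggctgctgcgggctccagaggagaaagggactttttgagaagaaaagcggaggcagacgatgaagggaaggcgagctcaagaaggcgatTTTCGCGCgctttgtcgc

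E2f7 held an E2F match starting 198 bases before its start and 2 CCAAT boxes, at 46 and 14 bases. E2f8 held a CCAAT box at 112 bases and a CHR element at 20 bases, with no E2F match, and Rbl1 an E2F match at 18 bases. The canonical E-box CACGTG, the site of BMAL1 and its partner, was in none of the 3. Promoter windows of 300 bases, which include 50 bases after the start, were found for 7 of the 10 members, 9 windows in all, but not for E2f4, E2f5 and Rb1. An E2F match was in 4 of those 9 windows (E2f2, E2f3, E2f7 and Rbl1) and in 2.27% of 32851 windows of all genes. The CHR element was in 3 of 9 against 17.9%, the CCAAT box in 5 of 9 against 37.4%, and the E-box in 1 of 9, an E2f3 window, against 7.15%. The GC content of the 3 printed stretches was 79.2%, 62.4% and 63.6%, and matches were not compared with other windows of like GC content. No E2F match in the E2f1 and E2f8 windows says only that these letters are not in them.

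E2f2, E2f4 and E2f5 were assigned 1 shared rhythm each. E2f2 (chromosome 4, 136172394 to 136196057), an activator, had the largest shared rhythm, 1.63-fold with a peak at ZT20.8 ± 0.524 h. Its fitted level ran from 8.73 at ZT8 to 9.41 at ZT20 in WT and from 9.07 to 9.76 at the same times in EpiKO, so the EpiKO curve was the higher one throughout. E2f4 (chromosome 8, 105297663 to 105305370) had a shallow rhythm of 1.15-fold with a peak at ZT17.9 ± 0.802 h, and E2f5 (chromosome 3, 14578641 to 14606309) one of 1.21-fold at ZT13.2 ± 0.909 h. The weights of the same-rhythm model were 0.911, 0.823 and 0.822 in the authors' deposited table.

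A shared curve sets equal heights and peak times, so heights and peak distances of free curves were also back-calculated from the same weights. Assignment to the shared class already limits how far the genotypes can differ, so these values are not a separate check. The heights of E2f2 were then 0.84 in WT and 0.59 in EpiKO (log2, SE 0.14 each), with peaks 1.26 h apart. For E2f4 they were 0.25 and 0.14 (SE 0.06), and for E2f5 0.20 and 0.34 (SE 0.09), with peaks 0.751 h and 0.552 h apart. The differences in height were -0.25 ± 0.19, -0.11 ± 0.08 and 0.14 ± 0.13 (log2), each less than 1.38 times its SE. Rb1 (chromosome 14, 73183673 to 73325822), the retinoblastoma gene, had a weight of 0.657 for no rhythm in the authors' deposited table, and its free heights were 0.20 ± 0.10 in WT and 0.14 ± 0.10 in EpiKO (log2). Rb1 shares 11.9% of its 51-base windows with Lpar6 and Rcbtb2, which overlap it on the opposite strand. Over all 10 members, a free EpiKO height of at least 2 SE was reached by 7, against 37.7% of all genes.

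**Figure D3:**
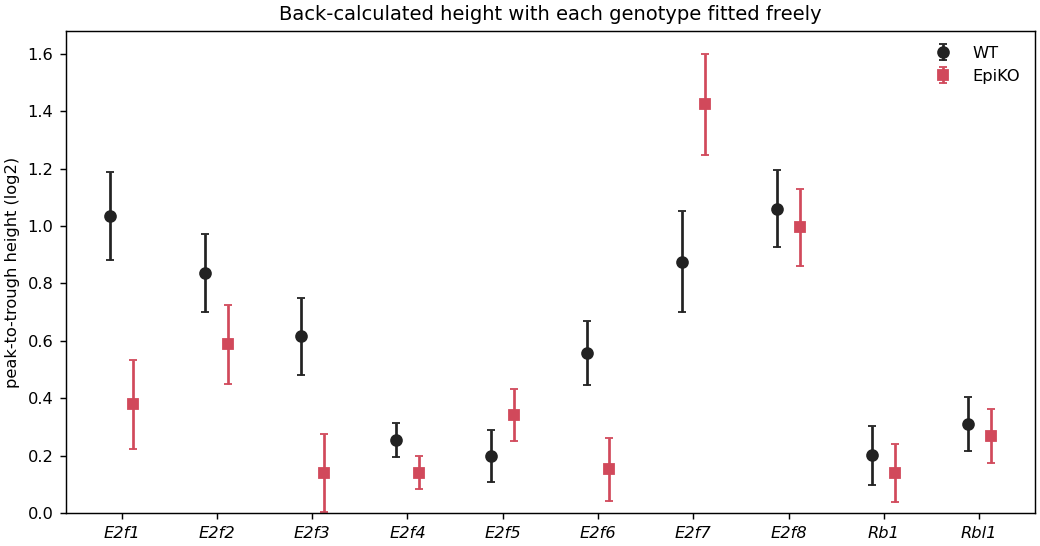
Peak-to-trough height (log2, vertical axis from 0) of each member in WT (black circles) and EpiKO (red squares), back-calculated from the model weights with each genotype fitted freely. Bars are ± 1 SE. E2f1, E2f3 and E2f6 have lower points in EpiKO, E2f7 a higher one, and the bars of E2f2, E2f4, E2f5, E2f8, Rb1 and Rbl1 overlap.

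Across the day in WT the members peaked over a span of 7.61 h, all in the dark phase. The mean peak of all genes rhythmic in WT was ZT15.2, also in the dark, so this timing is not particular to the members. The peak of E2f5 (± 0.909 h) lay within 2 SE of lights off. The order was E2f5 (ZT13.2), E2f1 (ZT13.4), E2f6 (ZT15.5), Rbl1 (ZT16.9), E2f7 (ZT17.7), E2f3 (ZT17.8), E2f4 (ZT17.9), E2f8 (ZT19.8) and E2f2 (ZT20.8). Of these neighbours only E2f1 and E2f6 lay more than 2 SE apart (2.09 ± 0.951 h). The wider steps were better resolved. E2f7 peaked 4.31 ± 0.953 h and E2f8 6.40 ± 0.747 h after E2f1, the activator they are known to repress, and E2f8 peaked 2.09 ± 0.907 h after E2f7.

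The target genes give the timing against which to read these peaks. Of 18 known G1/S targets of E2F, 11 were assigned a rhythm in WT only and 5 different rhythms, and 2 were unassigned. All 12 late targets of the DREAM complex, the pocket protein repressor of G2/M genes, had different rhythms. Of all genes, 8.41% had a rhythm in WT only and 2.65% different rhythms. Both target lists were written with earlier results of these data known. The 12 late targets peaked at a mean of ZT22.7 in WT and ZT5.87 in EpiKO, between 6.12 and 8.24 h later. In WT the peak of E2f7 preceded that mean by 5.02 h and the peak of E2f8 by 2.93 h. In EpiKO the gaps were 2.51 h and 2.11 h. The 5 G1/S targets with different rhythms (Cdc6, Cdt1, Rrm2, Tk1 and Slbp) peaked at a mean of ZT15.5 in WT and ZT2.40 in EpiKO, which is 7.19 h and 3.47 h before the G2/M targets. In both genotypes the peaks of E2f7 and E2f8 lay between the mean times of these 2 groups. They followed the G1/S mean by 2.17 h and 4.26 h in WT, but by only 0.962 h and 1.36 h in EpiKO. No SE was calculated for the mean times, so the order in EpiKO is not resolved. Single targets broke it, since Rrm2 peaked at ZT18.7 in WT, after E2f7, and Tk1 at ZT4.18 in EpiKO, after E2f7 and E2f8. The difference in gaps between genotypes was not tested.

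**Figure D4:**
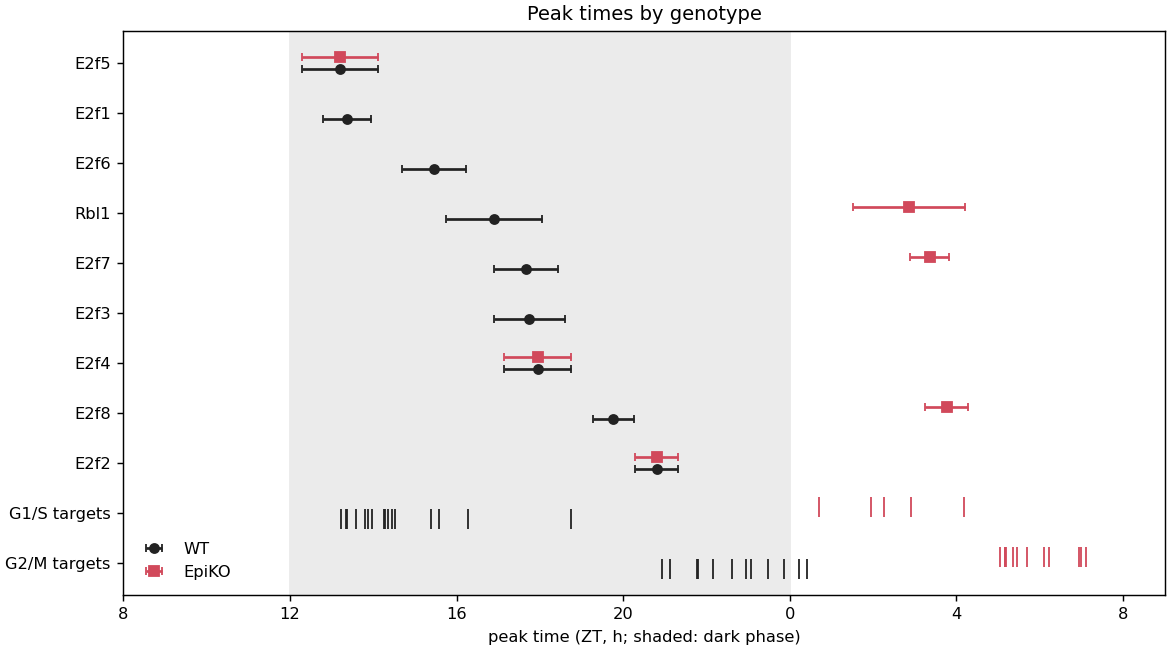
Peak time (horizontal axis, ZT in hours running from ZT8 over the shaded dark phase into the next light phase) in WT (black) and EpiKO (red) for members with a fitted rhythm, with bars of ± 1 SE. Ticks in the lower rows are single G1/S and G2/M target genes with an assigned rhythm. The EpiKO peaks of Rbl1, E2f7 and E2f8 lie at ZT2.87 to ZT3.76, while E2f2, E2f4 and E2f5 have 1 shared peak time each.

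Free curves were also back-calculated from the weights for the G1/S targets assigned to WT only. Of the 11, 8 had a free EpiKO height of at least 2 SE, where 17.7% of all genes rhythmic in WT only did so. Their median height was 1.799-fold in WT and 1.24-fold in EpiKO, and the 2 curves peaked a median of 10.1 h apart. Mcm2, a helicase subunit, had 2.57-fold in WT and 1.35-fold in EpiKO, and Pola1, the catalytic subunit of DNA polymerase alpha, 1.78-fold and 1.23-fold. The distance between the curves ranged over the 11 from 7.16 h to 12 h, the largest value possible. That of E2f1, 8.61 ± 1.65 h, lies inside this range. Those of E2f3 (2.73 ± 3.79 h) and E2f6 (3.03 ± 2.91 h) lie below it and are poorly defined.

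Daily mean levels split evenly, with 5 members higher and 5 lower in EpiKO at a weight of at least 0.5 for unequal means. The same was assigned to 32.7% and 37.4% of all genes, so this count does not set the members apart. E2f1 had the largest difference, -0.95 ± 0.08 (log2, EpiKO minus WT, SE), a level of 0.516 times WT. E2f7 followed with -0.51 ± 0.09, and Rb1 had -0.21 ± 0.05. E2f2 and E2f6 were higher by 0.35 ± 0.07 and 0.33 ± 0.05, and E2f5 by 0.17 ± 0.05. For E2f3 (0.15 ± 0.07), Rbl1 (0.10 ± 0.05), E2f4 (-0.06 ± 0.03) and E2f8 (-0.13 ± 0.07) the weight for unequal means was between 0.510 and 0.635 in the authors' deposited table. These 4 differences were close to 2 SE. The median difference over all genes was 0, and the scaling of the libraries is not stated.

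**Figure D5:**
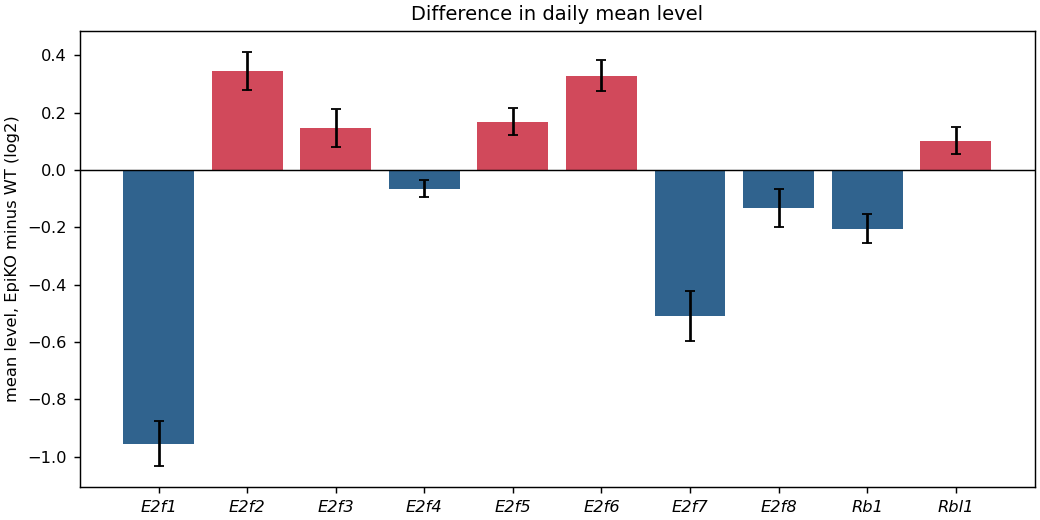
Difference in daily mean level (EpiKO minus WT, log2, vertical axis) of the 10 members, with bars from 0 and error bars of ± 1 SE. E2f1 (-0.95) and E2f7 (-0.51) are lowest, and E2f2 (0.35) and E2f6 (0.33) highest.

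Partners, regulators and targets of the members were examined as fixed lists of 70 further genes, all in the table. The 70 include the 18 G1/S and 12 G2/M targets described above. Of the 70, 28 had different rhythms and 22 a rhythm in WT only, against 2.65% and 8.41% of all genes. The same rhythm was assigned to 4, a rhythm in EpiKO only to 1 and none to 8, against 16.7%, 4.31% and 56.7% of all genes. The remaining 7 were unassigned. The median height of the 70 in WT, over the 54 rhythmic there, was 1.94-fold, against 1.58-fold for the 8 members and 1.29-fold for all genes rhythmic in WT. E2F proteins bind DNA with a DP partner. Tfdp2 had the same rhythm in both genotypes (1.36-fold, ZT8.03), whereas Tfdp1 went from 1.39-fold at ZT16.3 to 1.18-fold at ZT19.1. Its mean differed by -0.48 ± 0.04 (log2). Rbl2, the pocket protein p130, was unassigned, with a mean difference of -0.29 ± 0.03 (log2).

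Upstream of the pocket proteins, the D-type cyclins had smaller heights in EpiKO where they stayed rhythmic. Ccnd1 went from 2.39-fold at ZT11.9 ± 0.307 h in WT to 1.52-fold at ZT17.8 ± 0.654 h in EpiKO, 5.93 h later. Ccnd2 went from 3.20-fold at ZT9.94 ± 0.325 h to 1.39-fold at ZT16.1 ± 1.20 h, 6.16 h later. Both peaked ahead of E2f1 in WT, and their mean levels differed by -1.14 ± 0.05 and -0.62 ± 0.07 (log2). Ccnd3 was rhythmic in WT only. Their kinase genes differed, with Cdk4 assigned no rhythm and a mean difference of 0.38 ± 0.04, and Cdk6 rhythmic in WT only with a mean difference of 2.01 ± 0.05 (log2). Among kinase inhibitors, Cdkn2c peaked at ZT23.4 in WT and ZT4.57 in EpiKO and Cdkn2d was rhythmic in EpiKO only with a peak at ZT3.62, while Cdkn1b was rhythmic in WT only, Cdkn2b had the same rhythm in both genotypes, and Cdkn1a and Cdkn1c had none. Cdkn2a was also assigned no rhythm, but its mean level was only -1.89 (log2) in both genotypes.

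Next in the cycle, Ccne1 and Ccne2, the E-type cyclins, were rhythmic in WT only at ZT15.6 and ZT14.8, between E2f1 and E2f7. Ccne2 had a mean higher by 1.31 ± 0.08 (log2) in EpiKO. Cdk2 peaked at ZT12.7 in WT and ZT2.93 in EpiKO, and Ccna2 at ZT22.5 and ZT5.39. Of the 8 genes of the MuvB core, which joins pocket proteins in the DREAM complex, and its activators, 4 fell in the WT-only class and 2 in that with different rhythms. Those classes held 8.41% and 2.65% of all genes. Mybl2, itself an E2F target, cycled 2.34-fold in WT only (ZT16.7), and Foxm1, which drives G2/M genes, went from 2.58-fold at ZT21.7 to 2.32-fold at ZT5.49. Its peak was 7.79 h later, beside 8.00 h for E2f8 and a median of 7.58 h over all 470 genes with different rhythms. Ccnf, a cyclin that targets E2F proteins for degradation, peaked at ZT23.0 and ZT5.03, and Skp2 was rhythmic in WT only.

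Genes of the polycomb complex that E2f6 joins fell in several classes. Of its 8 partner genes, 3 had no rhythm, 2 the same rhythm, 1 a rhythm in WT only, and 2 were unassigned. The first 3 of these classes held 56.7%, 16.7% and 8.41% of all genes. Pcgf6 kept a rhythm of 1.34-fold at ZT16.5 in both genotypes, near the WT peak of E2f6. Mean levels lay on both sides, with Ring1 at 1.02 ± 0.03, Cbx3 at -1.996 ± 0.05 and Rybp at -1.85 ± 0.10 (log2, EpiKO minus WT).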

How the data were processed

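The series holds 24 EpiKO libraries, grouped by the time in their titles. The 1 table used is the authors' dryR comparison with WT, per the series design text. Per the submitters' processing notes, the genome build was mm10 and the tools, in no stated order, included edgeR, featureCounts 1.6.0, SAMtools 1.3.1, HISAT2 2.2.1 and Trimmomatic 0.36. Per the file headers, the deposited values are model weights (scores from 0 to 1), mean levels (log2 values), cosine coefficients, heights and peak times in hours. The side not named WT was taken as EpiKO.

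Weights follow the Bayesian information criterion, so their ratios give likelihood-ratio statistics once the number of libraries is known. It was set to 48 from the labels, and the largest weight of the same-rhythm model corresponds to 47.96. Each height divided by the root of its statistic gave the SE, with equal noise assumed in both genotypes. The statistics of the other models gave free heights and the time between peaks. In 470 genes with different rhythms, back-calculated over deposited EpiKO height had a median of 1.01, with percentiles 5 and 95 at 0.912 and 1.09. Over 3005 genes, the SE of a height was 2.000 times that of a mean difference, the ratio the sampling design gives.

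No test of significance was run. Members and lists were chosen with earlier results of these data known. The text names all members, examples from the lists and the 3 genes of the same class nearest in coefficients, and 1 result of a listed gene is not reported here. Positions are from GENCODE M21, windows were counted in its transcripts, and promoters are from RefSeq. Alternatives were other weight limits, summed weights, a least height, a least difference, centring and leaving out low genes. Python 3.11.15, NumPy 2.4.6 and pandas 2.3.3 were used.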

Additional observations from a re-analysis of the deposited data

Results flagged for a closer look

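For 6 members the models in which the genotypes have unequal rhythms took most of the weight. The summed weight was 1.00 for E2f1, 1.00 for E2f7, 1.00 for E2f8, 0.970 for E2f6, 0.957 for E2f3 and 0.918 for Rbl1. These weights compare models and are not tests, and for E2f3 and E2f6 the model with a rhythm in WT only alone had 0.924 and 0.921.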

How the results depend on the processing

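No paired analysis was possible because the table holds no values per library, and leaving out a replicate was not run for the same reason. At a weight of at least 0.8, Rb1 left the class without rhythm (0 members), members with a higher or lower mean in EpiKO became 3 and 3, WT-only G1/S targets numbered 7, and over the 70 pathway genes 12 were WT only and 3 without rhythm. E2f1, with 0.700, also lost its class there. With a least height of 0.25 (log2), 2 members had no rhythm, since E2f4 joined Rb1. With a least mean difference of 0.5 (log2), 0 members were higher and 2 lower. With a limit of 0.4 or none, 1 G1/S target (Tyms) and 2 pathway genes were EpiKO only. Counting free EpiKO heights of at least 2 SE, added after seeing the data, gave 15 G1/S targets and 52 pathway genes with a rhythm in EpiKO, against 5 and 33 by model. The other 172 values of these counts stayed within 1.5 times. Taking the SE from the models of the mean, also added later, moved none of the 20 free heights by as much as 1 SE.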

Other observations

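Nearest neighbours by fitted coefficients were also found for the other rhythmic members. Those of E2f7 among 461 genes with different rhythms were Bard1, Stil and Pclaf, and those of E2f8 were Cnih2, Ncaph and Cdca5. Bard1 encodes the partner of BRCA1 and Ncaph a condensin subunit. Bard1 resembled E2f7 in having the larger height in EpiKO, with 1.61-fold (ZT18.4) in WT but 2.22-fold (ZT3.77) in EpiKO. Neighbours of E2f3 were Ccp110, Tubg1 and Ndc1, and those of E2f6 were Trim37, Exosc6 and Rfc2, a subunit of the clamp loader. The shared-rhythm member E2f2 lay nearest to Galk1, Dclk1 and the chaperone gene Hsp90b1, which peaked at ZT20.7, ZT21.0 and ZT21.0.

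Birc5, the survivin gene, was the exception among the 12 G2/M targets, with the larger height in EpiKO (2.19-fold, against 1.63-fold in WT). It was named after its values were seen. Its peak moved from ZT20.9 to ZT5.18, 8.24 h later, which was the longest delay of the 12.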
